A study of Saccharomyces cerevisiae with 36 samples.

Results

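The amino acid biosynthesis genes of Saccharomyces cerevisiae were followed across every condition of the series. The set was 36 genes chosen by name from the arginine, histidine, leucine, lysine, isoleucine and valine, tryptophan, shikimate and aspartate pathways. Genes deleted or used as auxotrophic markers in the strains, such as LYS2, TRP1, HIS3, LEU2, MET17 and URA3, were left out of it. A named probe was found for 35 of the 36 genes, and ARG5,6, which encodes the early mitochondrial enzymes of arginine synthesis, was matched to no probe name. The arrays held 6388 yeast probes in all, and p-values were adjusted over all of them.

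Budding yeast can make every amino acid, and most of the enzymes work in short linear pathways whose first step is inhibited by the end product. The transcription factor Gcn4 activates genes of nearly all these pathways when uncharged transfer RNA accumulates, and its own synthesis is controlled mainly at translation, which an mRNA array does not measure. Lys14 activates the lysine genes in response to an intermediate of the lysine pathway, and Leu3 does the same for leucine and branched-chain genes in response to an intermediate of leucine synthesis. Arg80, Arg81, Arg82 and Mcm1 repress arginine synthesis when arginine is present. Several first steps are catalysed by a pair of isoenzymes, among them Leu4 and Leu9 for leucine, Lys20 and Lys21 for lysine, and Aro3 and Aro4 for the aromatic amino acids.

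The study addressed the NuB4/HAT-B complex, in which Hat1 acetylates newly made histone H4 with the help of Hat2 and the nuclear partner Hif1. RNA of each strain was hybridised on 2 dual-channel arrays of opposite dye, called a and b, against a common wild-type reference RNA, so that all 36 arrays of 18 strain groups shared 1 reference. The first 8 groups (16 arrays) were H3-RITE strains, which carry a single histone H3 gene whose epitope tag can be switched by Cre recombinase, and were starved by growth to saturation in rich medium. They comprised hat1Δ, hat2Δ, hif1Δ, hat1Δ hif1Δ, hat2Δ hif1Δ, 2 mutants of the remaining H4 gene with lysines 5 and 12 changed to glutamine (H4K5,12Q) or arginine (H4K5,12R), and the wild type, all MATa with mutated HIS3, LEU2, LYS2, MET15 and URA3, HHT1 and HHF1 replaced by LEU2, BAR1 deleted and Cre fused to an estradiol-binding domain under the TDH3 promoter at HIS3. The next 3 groups (6 arrays) were growing H3-RITE strains with histone H3 tagged with HA (H3-HA), tagged with T7 (H3-T7) or untagged, all MATa with mutated HIS3, LEU2, TRP1, MET15 and URA3, HHT1 and HHF1 replaced by MET15, BAR1 disrupted and the same Cre construct. The last 7 groups (14 arrays) were growing BY4742 strains, MATalpha with mutated HIS3, LEU2 and URA3, that carried hat1Δ, hat2Δ and hif1Δ singly, in pairs or all together. Both growing sets were grown in synthetic complete medium with glucose and harvested early in exponential growth. The paper states that the starved cultures were harvested as in its turnover experiments, and a legend gives the time as t = 3d. In those experiments estradiol was added to saturated cultures to switch the H3 tag from HA to T7. The starved strains thus carried tagged H3. The labels give BY4742 as the strain of every sample and do not say which of 2 independent cultures an array came from, so p-values measure the spread between arrays, which may be technical.

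Across the 36 arrays, between 94.9% and 99.7% of probes were above background, and the deleted HAT1, HAT2 and HIF1 genes were lower on every array of their deletion strains than on any array of the same set without that deletion. The 4 alpha-specific and 5 a-specific marker genes followed the mating types, except that the alpha-specific SAG1 overlapped between starved RITE and growing NuB4 arrays. The a-specific BAR1 had log2 ratios of 2.02 to 3.31 on starved and 2.45 to 3.16 on growing RITE arrays, against -0.13 to 0.04 on NuB4 arrays, although it is listed as deleted or disrupted in the RITE strains. Replicate arrays correlated at 0.961 to 0.983 over all probes in the starved set, at 0.916 to 0.963 in the growing RITE set and at 0.679 to 0.818 in the growing NuB4 set. The spot for ATG33 was dark in both channels on all growing RITE arrays and on the starved wild type, hat1Δ, hat2Δ and hif1Δ arrays, and above background on all others, so at least 2 array sets were used, in both channels alike. The starved RNA was isolated by another protocol than the growing and reference RNA. All 35 genes were above background in both channels on all 36 arrays and none was near saturation.

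**Figure D1:**
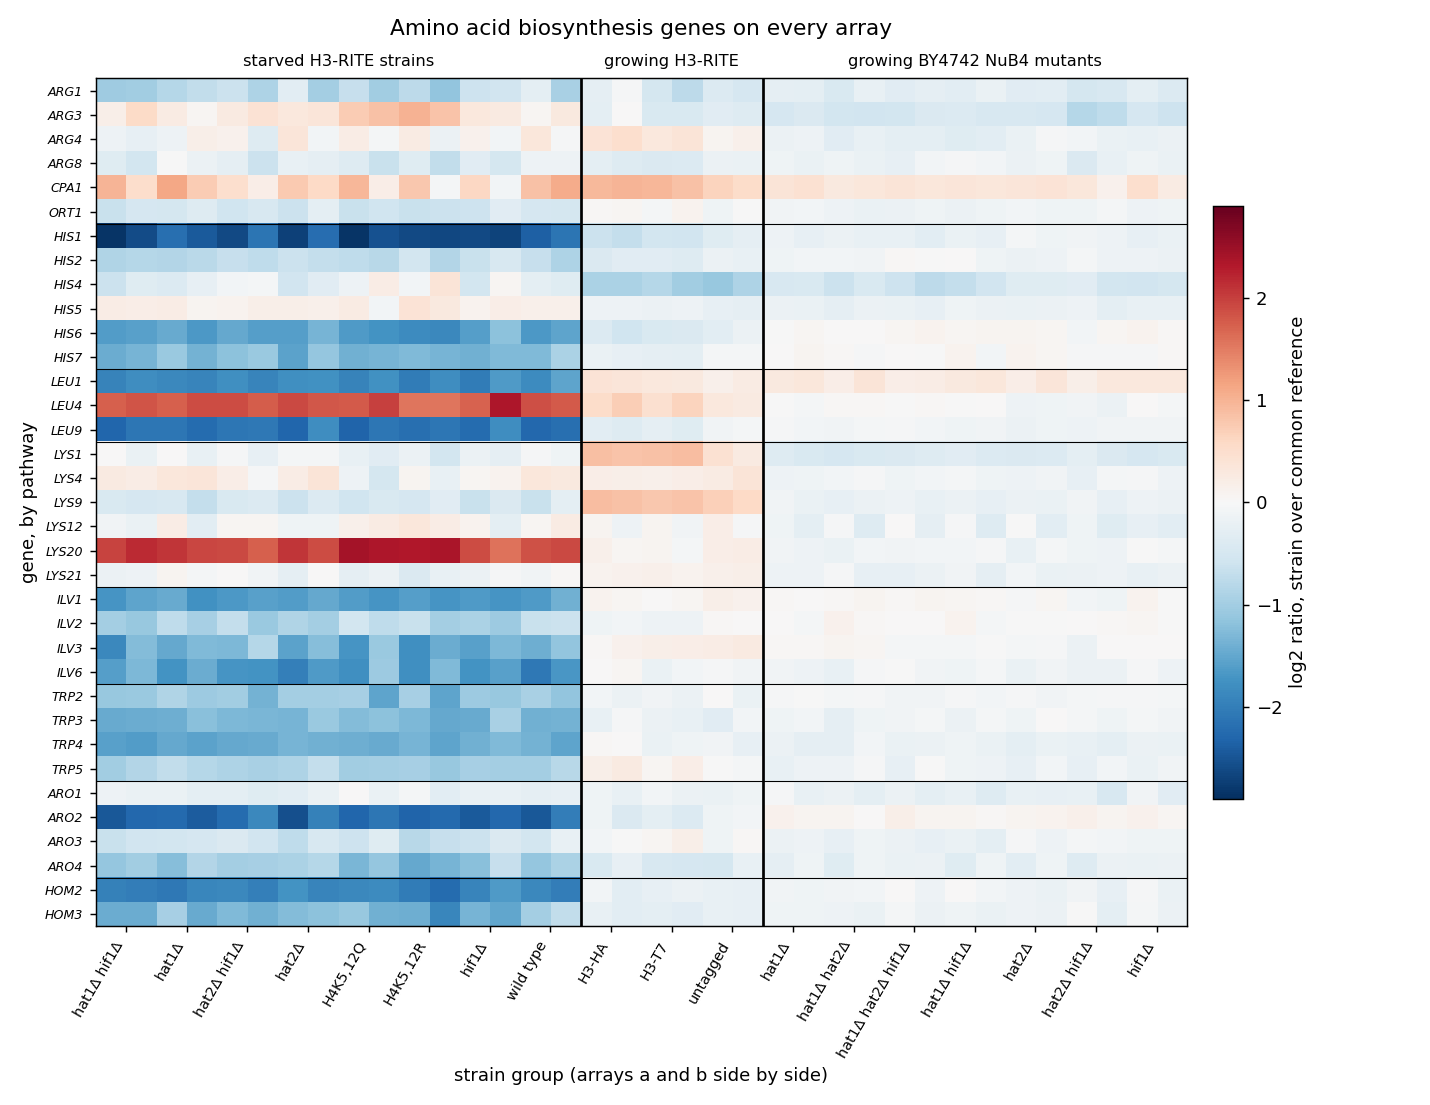
The log2 ratio of strain over common reference is shown by colour for the 35 measured genes (rows, by pathway) on each of the 36 arrays (columns, a and b side by side within a strain group). The 16 starved arrays form a block of low HIS1, LEU1, LEU9, ILV, TRP, ARO2 and HOM2 with high LEU4 and LYS20, and the 6 growing RITE arrays stand out by high LYS1 and LYS9.

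The log2 differences of the set were largest between starved and growing cells. In the starved wild type, 23 of the 35 genes were lower and 6 were higher than in the growing untagged RITE strain (limma, Benjamini-Hochberg adjusted p under 0.05), where 39.0% of all probes were called lower and 41.7% higher. The median log2 difference of the 35 genes was -0.62, against 0.01 over all probes. In either direction the comparison called 80.7% of all probes. All 4 isoleucine and valine genes, all 4 tryptophan genes and both aspartate genes were lower, whereas the arginine and lysine genes were mixed. Starvation coincides here with rich medium, any estradiol treatment, a tagged histone H3, another RNA isolation protocol and the genotype differences given above. These cannot be told apart. In bulk RNA, fewer cells making a transcript and less transcript per cell cannot be told apart either. The ratios are relative to the other probes on an array, so a lower ratio is a lower share of the RNA.

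**Figure D2:**
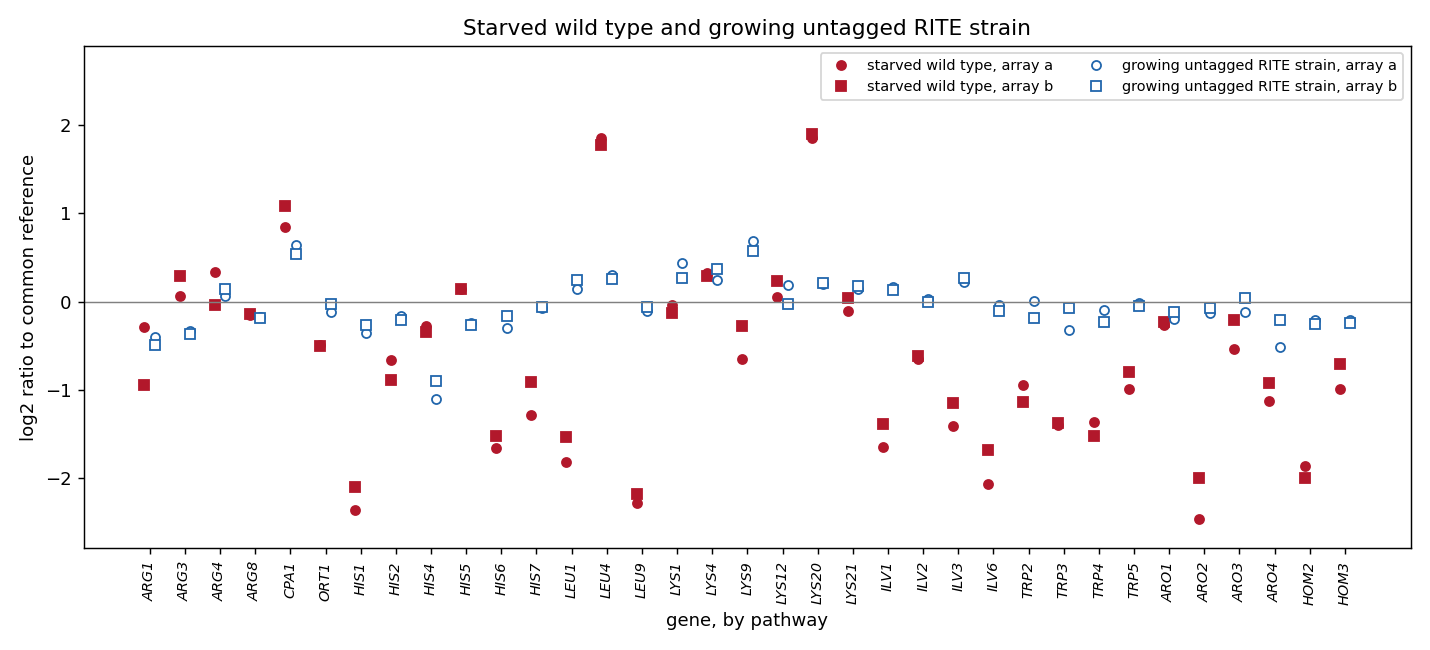
The log2 ratio to the common reference (y axis) is plotted for each of the 35 genes (x axis) on the 2 arrays of the starved wild type (filled) and the 2 arrays of the growing untagged RITE strain (open). The values of the 2 strains lie furthest apart for LEU9, ARO2 and HIS1, which are low in the starved wild type, and for LYS20 and LEU4, which are high.

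In the leucine pathway the first step split between its isoenzymes. LEU4, the main alpha-isopropylmalate synthase, had log2 ratios of 1.86 and 1.77 in the starved wild type (arrays a and b), against 0.31 and 0.26 in the growing untagged RITE strain, and was 2.89-fold higher (log2 difference 1.53 ± 0.12, SE, adjusted p = 9.21e-10). LEU9, its paralog, had log2 ratios of -2.28 and -2.18 in the starved wild type, against -0.11 and -0.06 in the growing strain, and stood at 0.226 times the growing level (-2.15 ± 0.10, adjusted p = 6.02e-13). LEU1, the isopropylmalate isomerase of the next step, moved with LEU9 and stood at 0.274 times the growing level (-1.87 ± 0.09, adjusted p = 1.25e-12). For all 3 genes the 2 strains were separated by more than 1 log2 unit on every array.

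At the entry of the lysine pathway, LYS20 rose and its isoenzyme gene LYS21 changed little. LYS20, a homocitrate synthase, had log2 ratios of 1.85 and 1.90 in the starved wild type, against 0.20 and 0.21 in the growing strain, and was 3.19-fold higher (1.68 ± 0.09, adjusted p = 3.55e-12). Its isoenzyme gene LYS21 had a log2 difference of -0.20 ± 0.08 (adjusted p = 0.0374), a call that was lost with any of the 4 arrays left out, with adjusted p between 0.0503 and 0.190. LYS9, a saccharopine reductase of the late pathway, had log2 ratios of -0.65 and -0.28 in the starved wild type, against 0.68 and 0.57 in the growing strain, and was the lowest of the lysine genes (-1.09 ± 0.09, adjusted p = 3.64e-09). LYS1, the last enzyme of the pathway, was lower by a smaller amount (-0.44 ± 0.07, adjusted p = 1.52e-05). With the growing NuB4 mutants in place of the RITE strain, the log2 differences were -0.28 for LYS9 and 0.33 for LYS1. LYS2 is listed as mutated in the starved strains and not in the growing RITE strains. Its part in these differences was not tested. The middle enzymes LYS4, homoaconitase, and LYS12, homoisocitrate dehydrogenase, had log2 differences of 0.00 ± 0.09 and 0.07 ± 0.12 and were not called.

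**Figure D3:**
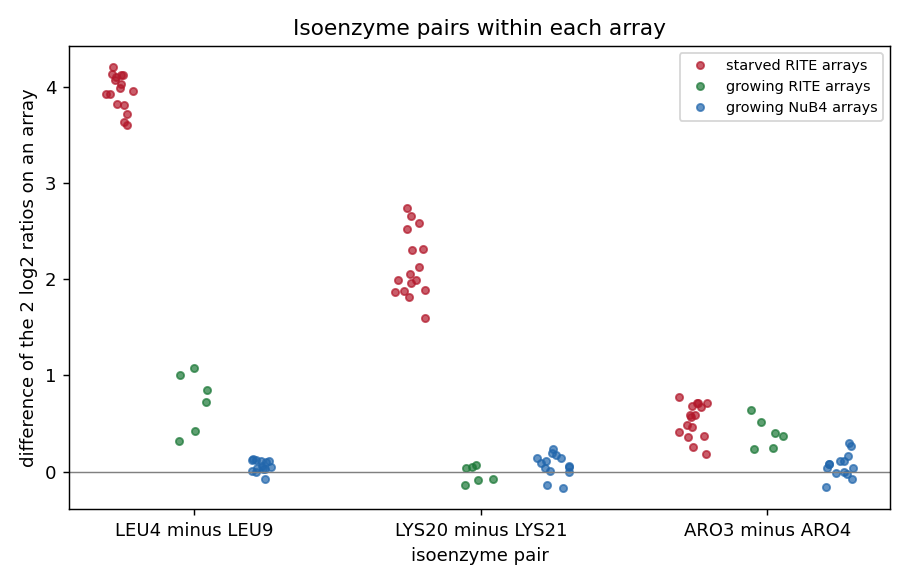
For 3 isoenzyme pairs (x axis), the difference between the log2 ratios of the 2 genes on the same array (y axis) is plotted for the 16 starved RITE, 6 growing RITE and 14 growing NuB4 arrays. LEU4 minus LEU9 is 3.60 to 4.21 on starved arrays and at most 1.07 on growing arrays, and LYS20 minus LYS21 is at least 1.60 on starved arrays and at most 0.23 on growing arrays, whereas ARO3 minus ARO4 overlaps.

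Within an array the split of the isoenzyme pairs was seen in every starved strain. LEU4 minus LEU9, the difference of the 2 log2 ratios on an array, ranged from 3.60 to 4.21 with a median of 3.97 on the 16 starved RITE arrays, from 0.32 to 1.07 on the 6 growing RITE arrays and from -0.07 to 0.13 on the 14 growing NuB4 arrays. LYS20 minus LYS21 ranged from 1.60 to 2.74 with a median of 2.02 on the starved arrays, from -0.14 to 0.06 on the growing RITE arrays and from -0.17 to 0.23 on the growing NuB4 arrays. The third pair behaved otherwise, and ARO3 minus ARO4 ranged from 0.19 to 0.77 on the starved arrays, from 0.23 to 0.64 on the growing RITE arrays and from -0.16 to 0.30 on the growing NuB4 arrays. The pairs were set side by side after their values had been seen, and how far the probes of near-identical paralogs share signal was not tested.

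Histidine genes went both ways. HIS1, the first and feedback-inhibited enzyme of the pathway, had log2 ratios of -2.37 and -2.11 in the starved wild type, against -0.35 and -0.26 in the growing strain, and stood at 0.262 times the growing level (-1.93 ± 0.13, adjusted p = 7.23e-11). HIS4, which encodes a trifunctional enzyme of the pathway, had log2 ratios of -0.28 and -0.35 in the starved wild type, against -1.11 and -0.90 in the growing strain, and was 1.61-fold higher (0.69 ± 0.12, adjusted p = 5e-05). HIS4 was nevertheless below the common reference in both strains, so that against the reference in place of the growing strain the starved wild type was lower by a log2 difference of -0.31. HIS5, the aminotransferase of the pathway, was higher by 0.39 ± 0.07 (adjusted p = 7.21e-05). HIS6, HIS7 and HIS2, which encode the isomerase, the glutamine amidotransferase and the histidinol phosphatase, were lower by log2 differences of -1.36 ± 0.10, -1.03 ± 0.11 and -0.59 ± 0.08.

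The 4 isoleucine and valine genes all fell. ILV6, the regulatory subunit of acetolactate synthase, had log2 ratios of -2.07 and -1.68 in the starved wild type, against -0.04 and -0.11 in the growing strain, and was the lowest of its pathway (-1.81 ± 0.11, adjusted p = 4.05e-11). ILV2, the catalytic subunit of the same enzyme, had -0.66 and -0.62 in the starved wild type, against 0.03 and 0.00 in the growing strain, and changed least (-0.65 ± 0.07, adjusted p = 1.16e-07), although with the authors' normalised ratios its log2 difference was 0.01. The threonine deaminase gene ILV1 and the dihydroxyacid dehydratase gene ILV3 were lower by -1.67 ± 0.09 and -1.53 ± 0.08.

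The 4 tryptophan genes, which act from chorismate onward, were lower within a narrow span. TRP4, the phosphoribosyl transferase, had log2 ratios of -1.36 and -1.53 in the starved wild type, against -0.10 and -0.23 in the growing strain (-1.28 ± 0.07, adjusted p = 7.63e-12). TRP5, tryptophan synthase, had -0.99 and -0.80 in the starved wild type, against -0.02 and -0.05 in the growing strain, and was the least changed (-0.86 ± 0.08, adjusted p = 5.73e-09). TRP2 and TRP3, the subunits of anthranilate synthase, lay between them at -0.95 ± 0.11 and -1.19 ± 0.11. The growing strain was itself a trp1 mutant, with TRP1 log2 ratios of 1.11 to 1.77 on the 16 starved arrays, against -3.05 to -2.87 on the 6 growing RITE arrays. What part the TRP1 genotype has in the tryptophan gene levels was not tested.

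In the shikimate pathway, which supplies chorismate, the last enzyme fell and the pentafunctional one did not pass the test. ARO2, chorismate synthase, had log2 ratios of -2.46 and -2.0 in the starved wild type, against -0.13 and -0.07 in the growing strain, and stood at 0.228 times the growing level (-2.13 ± 0.12, adjusted p = 6.8e-12). ARO1, the pentafunctional enzyme just before it, had -0.27 and -0.23 in the starved wild type, against -0.20 and -0.12 in the growing strain (-0.09 ± 0.07, adjusted p = 0.259). The entry isoenzymes ARO3 and ARO4 were both lower, by -0.33 ± 0.08 and -0.66 ± 0.10. Of the aspartate genes, which lead to threonine and methionine, HOM2, aspartic semialdehyde dehydrogenase, had -1.87 and -2.01 in the starved wild type, against -0.21 and -0.25 in the growing strain (-1.71 ± 0.10, adjusted p = 7.92e-12). HOM3, the aspartate kinase of the first step, had -0.99 and -0.71 in the starved wild type, against -0.21 and -0.24 in the growing strain (-0.62 ± 0.13, adjusted p = 0.000223).

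Of the 6 measured arginine genes, 2 were higher, 1 was lower and 3 were not called. Their median log2 difference was 0.04, against -0.10 for the lysine genes. The order depended on the comparator. Against the common reference, the starved wild type had medians of 0.00 for the arginine and 0.05 for the lysine genes. ARG3, ornithine carbamoyltransferase, had log2 ratios of 0.07 and 0.29 in the starved wild type, against -0.34 and -0.37 in the growing strain, and was 1.45-fold higher (0.53 ± 0.11, adjusted p = 0.000162). CPA1, the small subunit of the arginine-specific carbamoyl phosphate synthetase, was called higher (0.37 ± 0.17, adjusted p = 0.0495). The CPA1 call depended on the setting. It was lost with median centring (-0.11, adjusted p = 0.503), print-tip loess (0.22, adjusted p = 0.0606) and the mean of the 8 starved strains (0.01, adjusted p = 0.933). It stood with the authors' normalised ratios (0.28, adjusted p = 0.0197) and against the growing NuB4 mutants (0.62, adjusted p = 0.000159). The log2 difference was -0.0038 without starved wild type array b and 0.75 without array a. It was 0.41 without growing array a and 0.34 without growing array b, and the call was lost in both cases. ORT1, the mitochondrial ornithine carrier, had -0.49 and -0.50 in the starved wild type, against -0.12 and -0.02 in the growing strain, and was lower (-0.43 ± 0.07, adjusted p = 9.48e-06). ARG1 and ARG4, the last 2 enzymes, and ARG8, the acetylornithine aminotransferase, had log2 differences of -0.17 ± 0.16, 0.04 ± 0.13 and 0.04 ± 0.08.

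The counts were also taken with other choices of cells. With the 7 growing NuB4 mutants as the growing cells, 9 of the 35 genes were higher and 22 lower in the starved wild type (44.4% and 42.2% of all probes), and LYS1 and LYS21 turned to log2 differences of 0.33 (adjusted p = 1.37e-05) and 0.13 (adjusted p = 0.0621). LEU4, LYS20 and LEU9 stood at 1.86, 1.98 and -2.13 in that contrast. The mean of all 8 starved strains against the growing untagged RITE strain gave 5 genes higher and 26 lower (44.2% and 41.1% of all probes). Among genes not called in the first comparison, LYS4 had log2 differences of 0.41 against the NuB4 mutants and -0.19 with the mean of the 8 starved strains, and with that mean ARG8 stood at -0.18 (adjusted p = 0.0148), ARG4 at -0.09 and LYS12 at -0.04. On the authors' normalised ratios the count was 10 higher and 21 lower (42.3% and 39.0% of all probes), beside the 6 and 23 above. The 16 starved and 20 growing arrays of the whole series did not overlap for 24 of the 35 genes, and for 52.3% of all probes.

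The regulators and neighbouring pathway genes were read from lists drawn up with earlier results of these data known. Of 17 regulators, 8 were higher and 7 lower in the starved wild type than in the growing untagged RITE strain, where 41.7% and 39.0% of all probes were. GCN4 mRNA had log2 ratios of 2.03 to 2.78 on the 16 starved arrays (median 2.32), against 0.03 to 0.25 on the 6 growing RITE arrays (median 0.11), and was higher by a log2 difference of 2.02 ± 0.10. LYS14 was higher by 0.78 ± 0.07 and GCN2, the kinase that senses uncharged transfer RNA, by 0.47 ± 0.08, whereas LEU3 was not called (0.07 ± 0.08). GCN1 and GCN20, the partners that Gcn2 needs, were lower by -1.06 ± 0.09 and -1.39 ± 0.07. Of 15 further genes of the same pathways, 4 were higher and 9 lower, with the chorismate mutase gene ARO7 at -2.43 ± 0.10 and the homoserine kinase gene THR1 at -2.03 ± 0.06. The 15 include TRP1, a marker gene that is mutated in the growing RITE strains. The aminotransferase gene BAT2 had log2 ratios of 1.68 to 2.57 on starved arrays, against -0.39 to 0.19 on growing RITE arrays. ARO9, another aminotransferase gene, had 1.47 to 2.95, against 0.02 to 0.95. The starved state was plain in its 7 stress and stationary-phase marker genes, whose starved arrays lay above those of both growing sets for every gene.

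The growing RITE strains differed from the growing NuB4 mutants in every measured lysine gene and in 5 of 6 histidine genes. Of the 35 genes, 17 were higher and 13 lower in the RITE strains (36% and 41.0% of all probes were called higher and lower), with a median log2 difference of 0.06, against -0.02 over all probes. The direction of that median depends on the scaling: with median centring in place of loess it was -0.05, with 10 genes higher and 16 lower. In either direction the comparison called 77.0% of all probes. Mating type, array set, the marker alleles, the H3 gene and the NuB4 deletions all differ between the 2 sets and cannot be told apart. Stress and stationary-phase markers also differed: 6 of the 7 were called higher in the growing RITE strains and none lower. The mean log2 ratio of the 7 markers was 1.32 to 2.01 on the H3-HA arrays, 1.59 on both H3-T7 arrays and 0.45 to 0.63 on the untagged RITE arrays, against -0.06 to 0.37 on the NuB4 arrays. The growth marker genes RPL3, RPS3, RPL10, NOP1, NSR1 and CLN3 overlapped between the growing RITE and the NuB4 arrays. Each of them was higher on every growing RITE array than on any starved array. The part of either kind of marker in the differences was not tested.

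All 6 measured lysine genes were higher in the growing RITE strains. LYS1 ranged from 0.26 to 0.90 with a median of 0.84 on the 6 RITE arrays, against -0.49 to -0.29 with a median of -0.42 on the 14 NuB4 arrays, and was 2.15-fold higher (1.11 ± 0.03, adjusted p = 6.48e-12). LYS9 ranged from 0.57 to 0.90 with a median of 0.80, against -0.24 to -0.09 with a median of -0.18, and was 1.93-fold higher (0.95 ± 0.02, adjusted p = 6.12e-12). LYS20 changed least, from -0.05 to 0.21 with a median of 0.11 on the RITE arrays, against -0.21 to -0.01 with a median of -0.09 on the NuB4 arrays (0.20 ± 0.03, adjusted p = 2.24e-05). LYS4, LYS21 and LYS12 were higher by 0.33 ± 0.03, 0.30 ± 0.03 and 0.21 ± 0.03. The arrays did not overlap for LYS1, LYS9, LYS4 and LYS21, and did for LYS20 and LYS12. The share of all probes without overlap between these growing sets was not taken, so how unusual such a separation is remains unknown.

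Lysine marker and regulator genes moved alongside in part. LYS2, which encodes the aminoadipate reductase between LYS12 and LYS9 in the pathway, had log2 ratios of -1.05 to -0.56 (median -0.76) on the starved arrays and 2.43 to 2.68 (median 2.52) on the growing RITE arrays, against -0.18 to 0.11 (median -0.01) on the growing NuB4 arrays. LYS2 is deleted in BY4742 as that strain is generally described, is listed as mutated in the starved strains and is not listed as mutated in the growing RITE strains. LYS14, the activator of the lysine genes, was not called between the growing sets (0.02 ± 0.02). What part the LYS2 genotype has in the lysine gene levels was not tested.

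**Figure D4:**
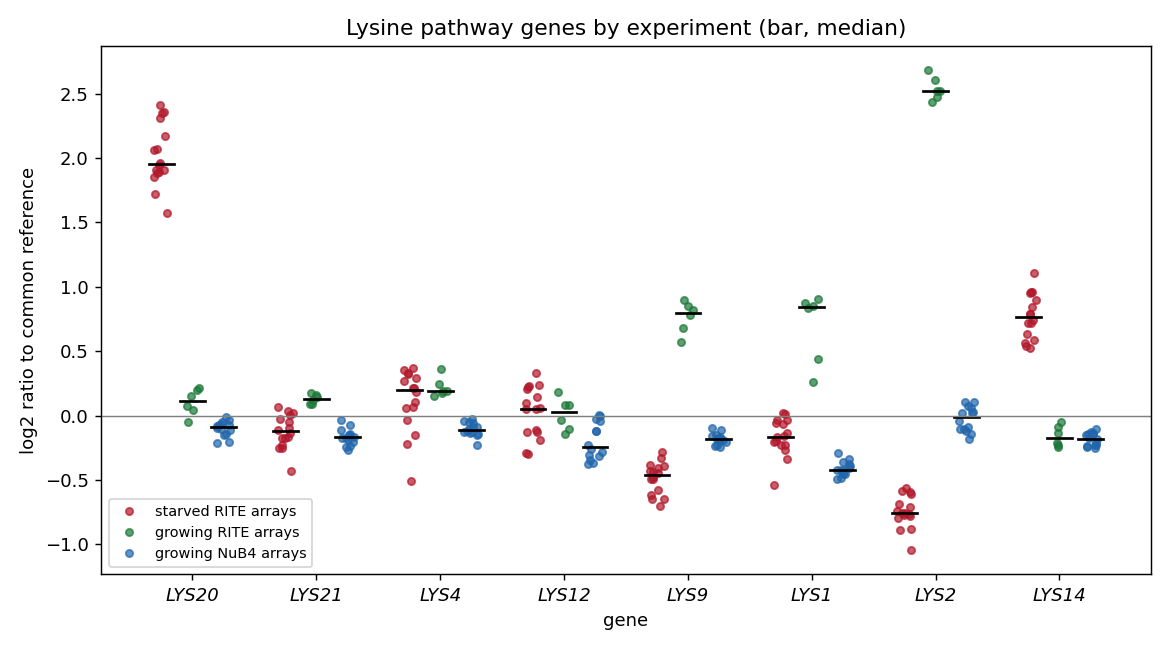
The log2 ratio to the common reference (y axis) is plotted for the 6 measured lysine biosynthesis genes, the marker gene LYS2 and the regulator gene LYS14 (x axis) on the 16 starved RITE, 6 growing RITE and 14 growing NuB4 arrays, with a bar at each median. LYS1, LYS9 and LYS2 are highest on the growing RITE arrays, and LYS20 and LYS14 on the starved arrays.

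The histidine genes went the other way in the growing RITE strains, with 5 of 6 lower and none higher. HIS4 ranged from -1.11 to -0.82 with a median of -0.92 on the RITE arrays, against -0.75 to -0.34 with a median of -0.52 on the NuB4 arrays, without overlap (-0.43 ± 0.05, adjusted p = 2.84e-06). HIS6 was lower by the same amount (-0.43 ± 0.03, adjusted p = 1.2e-07), and HIS1, HIS2 and HIS7 by -0.32 ± 0.02, -0.21 ± 0.02 and -0.20 ± 0.02. HIS5 ranged from -0.26 to -0.14 with a median of -0.17 on the RITE arrays, against -0.28 to -0.11 with a median of -0.18 on the NuB4 arrays, and was not called (0.01 ± 0.02, adjusted p = 0.831). The HIS3 probe, a marker gene, was higher by 0.21 ± 0.03 in the RITE strains, which carry a Cre construct at HIS3.

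In the arginine pathway 4 genes were higher and 1 was lower in the growing RITE strains. ARG4, argininosuccinate lyase, ranged from 0.07 to 0.49 with a median of 0.34 on the RITE arrays, against -0.35 to -0.03 with a median of -0.21 on the NuB4 arrays (0.51 ± 0.03, adjusted p = 3.19e-09). CPA1 was higher by 0.48 ± 0.04, ARG3 by 0.23 ± 0.04 and ORT1 by 0.13 ± 0.02. ARG8 ranged from -0.42 to -0.17 with a median of -0.33 on the RITE arrays, against -0.43 to -0.03 with a median of -0.16 on the NuB4 arrays, and was lower within overlapping ranges (-0.14 ± 0.03, adjusted p = 0.00232). ARG1 was not called (-0.08 ± 0.05, adjusted p = 0.11).

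Of the leucine, aromatic and tryptophan genes, LEU4 was the one most raised in the growing RITE strains. It ranged from 0.26 to 0.71 with a median of 0.50 on the RITE arrays, against -0.18 to 0.04 with a median of -0.01 on the NuB4 arrays (0.53 ± 0.03, adjusted p = 2.1e-09), and LEU9 from -0.37 to -0.06 with a median of -0.29, against -0.17 to -0.04 with a median of -0.10 (-0.15 ± 0.02, adjusted p = 1.81e-05). LEU1 was not called (0.02 ± 0.03, adjusted p = 0.455). The LEU9 difference rested on the tagged strains, and with the untagged RITE strain alone it was 0.01. LEU9 was the 1 of the 30 calls between the growing sets that reversed in that setting, where 17 held and 12 were lost. The untagged arrays were also at the low end of the RITE ranges for LEU4 (0.31 and 0.26) and LYS1 (0.44 and 0.26). ARO2 ranged from -0.42 to -0.07 with a median of -0.20 on the RITE arrays, against 0.02 to 0.17 with a median of 0.08 on the NuB4 arrays (-0.33 ± 0.03, adjusted p = 8.09e-07), and ARO3 from -0.12 to 0.16 with a median of 0.02, against -0.28 to -0.03 with a median of -0.15 (0.16 ± 0.02, adjusted p = 5.5e-05). TRP5 ranged from -0.05 to 0.27 with a median of 0.11, against -0.23 to -0.02 with a median of -0.14 (0.24 ± 0.03, adjusted p = 3.24e-06), and TRP3 from -0.32 to -0.03 with a median of -0.19, against -0.27 to 0.02 with a median of -0.11, which was not called (-0.07 ± 0.03, adjusted p = 0.0826).

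Small differences closed the list of the growing sets. ILV3 ranged from 0.04 to 0.27 with a median of 0.18 on the RITE arrays, against -0.17 to 0.08 with a median of -0.00 on the NuB4 arrays (0.18 ± 0.02, adjusted p = 6.17e-06), but turned to -0.042 with median centring. ILV2 ranged from -0.15 to 0.03 with a median of -0.11, against -0.07 to 0.12 with a median of 0.02 (-0.10 ± 0.02, adjusted p = 0.000665), and was 0.01 with the authors' normalised ratios. HOM3 ranged from -0.33 to -0.21 with a median of -0.26, against -0.28 to -0.00 with a median of -0.14 (-0.12 ± 0.03, adjusted p = 0.00139), and HOM2 from -0.30 to -0.08 with a median of -0.22, against -0.23 to 0.02 with a median of -0.11 (-0.10 ± 0.03, adjusted p = 0.0113). ILV1, TRP4 and ARO1 were called higher by 0.06 ± 0.02, 0.10 ± 0.03 and 0.09 ± 0.03, ARO4 and TRP2 lower by -0.18 ± 0.03 and -0.07 ± 0.02, and ILV6 was not called (0.06 ± 0.03). The call of ILV1 was lost without untagged array a, H3-HA array a or H3-T7 array b, that of TRP4 without untagged array a or H3-T7 array b, that of ARO1 without untagged array b or H3-T7 array a, and that of HOM2 without H3-HA array b or H3-T7 array a. With median centring ILV1 and ARO1 turned to -0.058 and -0.0033.

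Among the growing NuB4 mutants the set sat slightly below the common wild-type reference. Over the 7 strains, 27 of the 35 genes were lower and 4 higher than the reference (38.7% and 36.3% of all probes, 74.9% together), with a median log2 ratio of -0.13, against -0.00 over all probes. No wild-type culture was hybridised as a strain of this set, so the test is against a ratio of 0 and leaves out the spread of the wild type. The paper compared these mutants with a separate collection of wild-type cultures. At its thresholds on fold change and p, it reported them as not different from wild type. ARG3 was lowest (-0.53 ± 0.01, adjusted p = 5.74e-11), with log2 ratios between -0.84 and -0.39, followed by HIS4 (-0.52 ± 0.02) and LYS1 (-0.41 ± 0.01), and all 3 were below 0 on all 14 arrays. ARG1, ARO1, ARO4, ARG4, TRP4, LYS12 and HIS5 completed the 10 largest decreases, at -0.32 to -0.19. CPA1 (0.34 ± 0.02) and LEU1 (0.27 ± 0.01) were above 0 on all 14 arrays, and the 2 others called higher were ARO2 (0.09 ± 0.01) and HIS6 (0.04 ± 0.01). ARG3 varied between strains, with a mean of -0.79 in hat2Δ hif1Δ and -0.42 in hat1Δ hif1Δ.

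Deletion of HAT1 was tested by setting hat1Δ hat2Δ, hat1Δ hif1Δ and the triple mutant against hat2Δ, hif1Δ and hat2Δ hif1Δ, 6 arrays each, and called 3 of the 35 genes. LEU4 was higher and ARG4 and HIS4 were lower, beside 2.32% and 2.38% of all probes called higher and lower (4.70% in all). LEU4 ranged from -0.01 to 0.04 with a median of 0.01 with HAT1 deleted, against -0.18 to 0.00 with a median of -0.11 (0.11 ± 0.02, adjusted p = 0.0263). ARG4 ranged from -0.35 to -0.22 with a median of -0.29, against -0.21 to -0.03 with a median of -0.18 (-0.15 ± 0.03, adjusted p = 0.0342). HIS4 ranged from -0.75 to -0.45 with a median of -0.61, against -0.56 to -0.34 with a median of -0.43 (-0.17 ± 0.04, adjusted p = 0.0489). GCN4 mRNA had a log2 difference of 0.14 ± 0.03 in the same comparison. The GCN4 value was not checked with arrays left out, and a link to the 3 genes was not tested. None of the 3 calls held with every array left out in turn, and the number of genes called was between 0 and 9, the highest without hif1Δ array a.

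Deletions of HAT2 and HIF1 on matched backgrounds called none of the 35 genes with limma, while 3 and 4 genes had an unadjusted p under 0.05. The calls over all probes were 0.0157% for HAT2 and 0.329% for HIF1. For HAT2 the smallest adjusted p belonged to ARG3, which ranged from -0.84 to -0.41 with HAT2 deleted, against -0.60 to -0.39 with HAT2 present (-0.13 ± 0.03, adjusted p = 0.68). For HIF1 it belonged to ARO1, which ranged from -0.47 to -0.16 with HIF1 deleted, against -0.29 to -0.04 with HIF1 present (-0.09 ± 0.03, adjusted p = 0.177). The 3 deletion contrasts share arrays. The largest log2 difference of any member in the HAT1, HAT2 and HIF1 contrasts was -0.17, against 1.68 for the rise of LYS20 in starved cells.

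The tags on histone H3 were set against the untagged growing RITE strain, with 2 arrays a group. In H3-HA cells 11 of the 35 genes were higher and 8 lower (25.3% and 19.3% of all probes), and in H3-T7 cells 7 were higher and 9 lower (22.7% and 15.4%). Both comparisons share the untagged arrays, and the split depends on the scaling, since median centring gave 3 higher and 14 lower for H3-HA and 1 higher and 17 lower for H3-T7. In either direction the H3-HA and H3-T7 comparisons called 44.7% and 38.1% of all probes. Of the 7 stress and stationary-phase markers, 6 were called higher in H3-HA cells and 6 in H3-T7 cells. HSP26, a small heat shock protein gene, had log2 ratios of 2.02 and 3.29 in H3-HA cells and 2.45 and 2.35 in H3-T7 cells, against 0.44 and 0.23 in untagged cells. What part the state of the cultures has in the tag comparisons was not tested.

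LYS1 was the gene with the largest rise over untagged cells in both H3-HA and H3-T7 cells. It had log2 ratios of 0.88 and 0.84 in H3-HA cells, against 0.44 and 0.26 in untagged cells, and was 1.42-fold higher (0.51 ± 0.06, adjusted p = 3.21e-05). In H3-T7 cells it had 0.85 and 0.90 and was 1.44-fold higher than in the same untagged cells (0.53 ± 0.06, adjusted p = 3.11e-05). Besides LYS1, the other genes higher in H3-HA cells were CPA1 (0.37), ARG4 (0.34), LEU4 (0.34), ARG1 (0.30), TRP5 (0.25), LYS9 (0.24), ARG3 (0.23), LEU1 (0.19), TRP4 (0.19) and ORT1 (0.11), with the log2 difference in brackets, so that 5 of 6 arginine genes were among them. Those higher in H3-T7 cells were CPA1 (0.31), LEU4 (0.27), ARG4 (0.24), LYS9 (0.17), TRP5 (0.16) and ARO3 (0.15).

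Histidine genes were lower with both tags, at 4 of 6 genes each and none higher. HIS1 had log2 ratios of -0.63 and -0.68 in H3-HA cells and -0.52 and -0.55 in H3-T7 cells, against -0.35 and -0.26 in untagged cells (-0.35 ± 0.04 and -0.23 ± 0.04, adjusted p = 4.31e-05 and 0.00112). HIS6 was lower by -0.26 and -0.20, HIS2 by -0.20 and -0.17 and HIS7 by -0.15 and -0.21 in H3-HA and H3-T7 cells. The other genes lower in H3-HA cells were LEU9 (-0.25), ARO2 (-0.18), ILV3 (-0.17) and ILV2 (-0.12), and in H3-T7 cells ARO2 (-0.24), ARG8 (-0.23), LEU9 (-0.23), LYS20 (-0.19) and ILV2 (-0.17). With each array left out in turn, ARG4, CPA1, HIS1, LEU4, LEU9 and LYS1 stayed called in H3-HA cells, 6 of 19, and ARG4, HIS1, LEU4, LEU9 and LYS1 in H3-T7 cells, 5 of 16. The counts were lowest without untagged array b, at 8 and 7 genes, and with all 36 arrays in 1 fit they were 2 for H3-HA and 1 for H3-T7. No gene of the set was called between H3-T7 and H3-HA directly, where 0.470% of all probes were. The largest such difference was that of ARG1, with log2 ratios of -0.50 and -0.76 in H3-T7 cells, against -0.25 and -0.03 in H3-HA cells (-0.49 ± 0.16, adjusted p = 0.37).

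Among the starved strains, the mutants were set against the starved wild type, whose 2 arrays all 7 comparisons share. The paper itself made no genome-wide test in starved cultures, for the reason that expression varies under starvation. In 6 of the 7 mutants none of the 35 genes was called with limma, with unadjusted p under 0.05 for 0 genes in hat1Δ, 2 in hat2Δ, 5 in hif1Δ, 6 in hat1Δ hif1Δ, 4 in hat2Δ hif1Δ and 9 in H4K5,12Q. Of all probes, 0.0157% were called in hat1Δ, 0.0157% in hat2Δ and 0.329% in hif1Δ, all of them lower. In hat1Δ hif1Δ 0.0157% were called higher and 0.0470% lower (0.0626% in all), in hat2Δ hif1Δ 0.0939% higher and 0.0626% lower (0.157%), and in H4K5,12Q 0.219% higher and 0.376% lower (0.595%). In H4K5,12R 2 of the 35 genes were called and 14 had an unadjusted p under 0.05, beside 1.61% of all probes called higher and 1.63% lower (3.24%). With all 36 arrays in 1 fit, which shares 1 estimate of the spread, 14 genes were called in H4K5,12R and 7 in H4K5,12Q. The hat1Δ hif1Δ, hat2Δ hif1Δ, H4K5,12Q and H4K5,12R arrays were of the set with an ATG33 signal and the wild type arrays were not, so mutation and array set cannot be told apart for them.

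ARG3 was higher in H4K5,12R, with log2 ratios of 1.00 and 0.83, against 0.07 and 0.29 in the starved wild type, or 1.67-fold (0.74 ± 0.13, adjusted p = 0.018). In H4K5,12Q it had 0.73 and 0.85 and did not pass (0.61 ± 0.13, adjusted p = 0.0672), and on the other starved mutant arrays it lay between 0.05 and 0.55. The ARG3 ratios of both H4 mutants were thus above those of every other starved array. The call was lost with any of the 4 arrays left out, with adjusted p between 0.061 and 0.114.

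HOM3 was lower in H4K5,12R, with log2 ratios of -1.41 and -1.89, against -0.99 and -0.71 in the starved wild type, or 0.575 times its level (-0.80 ± 0.17, adjusted p = 0.0356). The call was lost with wild type array b left out (adjusted p = 0.233) or with either mutant array left out (0.079 and 0.219). The log2 difference of HOM3 was below 0 in all 7 mutants, between -0.80 and -0.36, and passed the test in H4K5,12R only. Since the 7 comparisons share the wild type arrays, this common sign is a single observation of those arrays.

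In H4K5,12Q the smallest adjusted p belonged to LYS4, with log2 ratios of -0.15 and -0.51, against 0.32 and 0.29 in the starved wild type (-0.63 ± 0.12, adjusted p = 0.0546). LYS20 had 2.41 and 2.35 in H4K5,12Q and 2.31 and 2.36 in H4K5,12R, against 1.85 and 1.90 in the wild type, and passed in neither (0.50 ± 0.11 and 0.46 ± 0.11, adjusted p = 0.0762 and 0.0554). No gene of the set was called between H4K5,12Q and H4K5,12R directly, where 0.704% of all probes were, and HOM3 differed by 0.40 ± 0.13 (adjusted p = 0.22). GCN4 mRNA had a log2 difference of 0.54 ± 0.12 between H4K5,12R and the wild type, which was not checked with arrays left out.

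**Figure D5:**
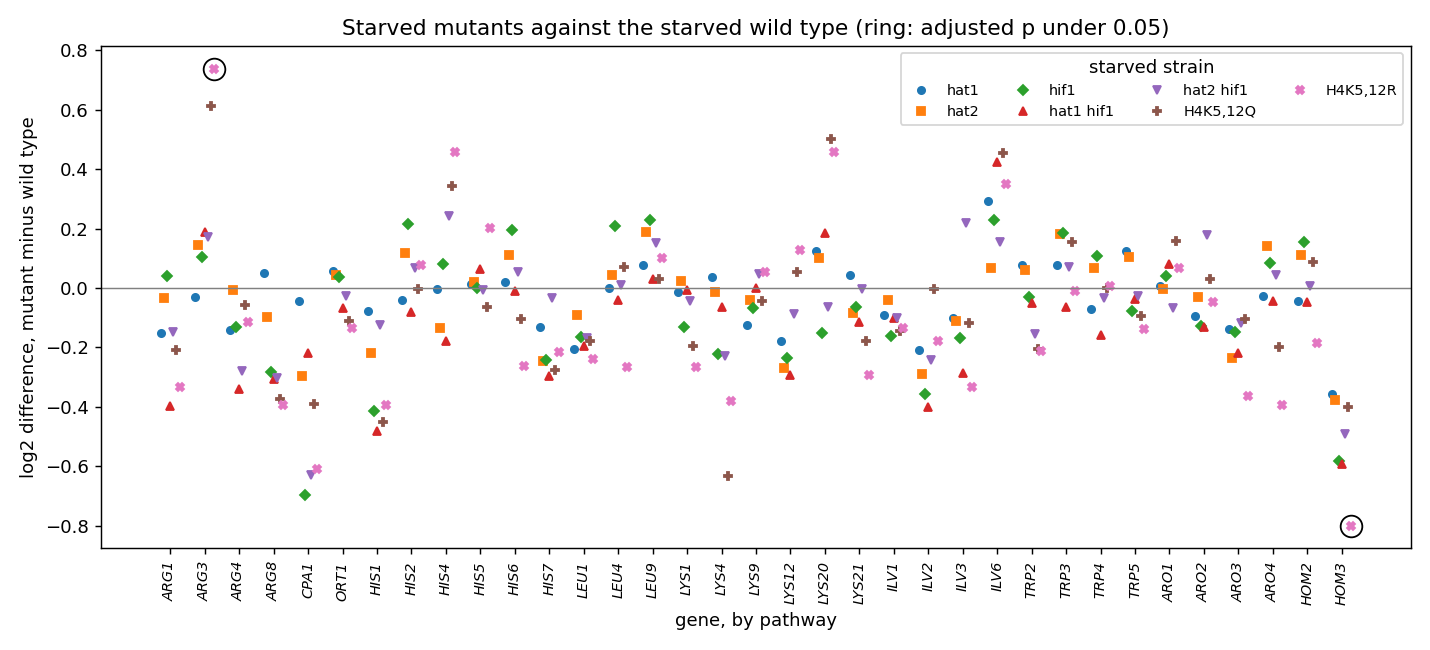
The log2 difference of each starved mutant from the starved wild type (y axis) is plotted for the 35 genes (x axis), with a symbol for each of the 7 mutants and a ring where adjusted p was under 0.05. The rings mark ARG3 (0.74) and HOM3 (-0.80) in H4K5,12R, and HOM3 is below 0 in all 7 mutants.

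The other starved deletion mutants gave values within the range above. ILV2 had the smallest adjusted p in hat2Δ (log2 ratios -0.87 and -0.99), hif1Δ (-0.93 and -1.06) and hat1Δ hif1Δ (-0.98 and -1.09), against -0.66 and -0.62 in the starved wild type, with log2 differences of -0.29 ± 0.10, -0.36 ± 0.10 and -0.40 ± 0.10 and adjusted p of 0.502, 0.213 and 0.159. ARG8 had it in hat2Δ hif1Δ, with -0.26 and -0.63, against -0.15 and -0.14 in the wild type (-0.30 ± 0.10, adjusted p = 0.285). In hat1Δ every gene had an adjusted p of 0.999. CPA1 varied between replicate arrays, from -0.07 to 1.12 over the 16 starved arrays, with H4K5,12R at 0.77 and -0.06. The effect of deleting HIF1 in hat1Δ and hat2Δ cells was also tested within the starved and the growing strains, in the fit of all 36 arrays. In starved cells ARG8 was lower, with log2 ratios of -0.35 and -0.54 in hat1Δ hif1Δ and -0.26 and -0.63 in hat2Δ hif1Δ, against -0.02 and -0.17 in hat1Δ and -0.21 and -0.27 in hat2Δ (-0.28 ± 0.06, adjusted p = 0.0406, 0.470% of all probes called). The arrays overlapped, and this call was not checked with arrays left out or in a fit of the starved arrays alone. The starved double mutants were on arrays with an ATG33 signal and the starved single mutants on arrays without it, so that HIF1 deletion and array set cannot be told apart there. In growing cells the same contrast called none of the 35 genes (0.0470% of all probes), with ARG8 at -0.03 ± 0.06. The difference between the effects in starved and growing cells was called for none of the 35 genes (0.0157% of all probes), with ARG8 at -0.25 ± 0.08 (adjusted p = 0.479).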

How the data were processed

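Members and all gene lists were chosen with earlier results of these data known. The authors hybridised dual-channel 70-mer arrays, each yeast probe spotted 2 times, and deposited the scanner's signal intensity per spot (mean and median of pixels, foreground and background) and a table of normalised log2 ratios, whose direction and centring were checked against the scanner values (r = 0.853 to 0.964). Per the labels the notes name limma 2.12.0. The authors also deposited a table of their own comparisons, log2 changes with p-values, which was not used.

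Mean intensities were background-corrected (normexp, offset 50), loess-normalised array by array (control spots had weight 0), averaged where spots carried the same probe, and given the sign of strain over reference, with limma 3.58.1 in R 4.3.3. Direction follows the dye labels. Groups were fitted with limma on log2 ratios with a dye term per experiment, which is also the replicate block (arrays a and b). Same-letter arrays deviated together (median r 0.50 in starved, 0.25 in growing RITE and 0.59 in growing NuB4 arrays). The letters mark dye orientation and pair no cultures. The starved against growing contrast used all 36 arrays, the growing contrasts the growing arrays and the starved contrasts the 16 starved arrays, whereas H3-T7 against H3-HA, H4K5,12Q against H4K5,12R and the HIF1 interaction came from the fit of all 36. A call is an adjusted p under 0.05 over 6388 probes. Above background means 2 SD over the local background. Of the probes, 5326 had a symbol and 11 symbols had 2 probes, of which the brighter stood for the gene. The procedure was tested on simulated data.

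Genes were named by a fixed rule. Per pathway, array values are given for the genes highest and lowest in the starved and in the growing-set comparison. Elsewhere, called genes are named, up to 10 per direction, or the gene with the smallest adjusted p. The number of arrays limits precision.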

Additional observations from a re-analysis of the deposited data

How the results depend on the processing

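With 2 arrays a group, both the settings and single arrays limit the calls. Of the 35 genes, the number called was 27 to 28 with each array left out in turn for the starved wild type, 28 to 31 for growing RITE against NuB4, 31 to 32 for NuB4 against the reference, 0 to 9 for HAT1, 0 to 1 for HIF1, 8 to 13 for H3-HA, 7 to 12 for H3-T7, 0 to 1 for starved hif1Δ and 0 to 1 for H4K5,12R. With no replicate block the HAT1 count was 0 and the H4K5,12R count 1, and no other count moved by over 1.5 times. With all 36 arrays in 1 fit the counts were 0 for HAT1, 2 for H3-HA, 1 for H3-T7, 1 for starved hat2Δ, 3 for hif1Δ, 6 for hat1Δ hif1Δ, 3 for hat2Δ hif1Δ, 7 for H4K5,12Q and 14 for H4K5,12R. The HAT1 count was 5 with no background correction or without dim probes, and 1 with median centring, the authors' ratios or the median of pixels. The H4K5,12Q count was 1 with no background correction or without dim probes, 2 with median centring, and 3 with print-tip loess or the authors' ratios. The H4K5,12R count was 5 with print-tip loess or the authors' ratios, and starved hat1Δ hif1Δ had 1 gene called with the authors' ratios. The untagged RITE strain alone gave 17 calls against NuB4. The calls of CPA1 and LYS21 in the starved wild type and of HOM3 in H4K5,12R were also lost with no replicate block (adjusted p = 0.172, 0.0565 and 0.0920). Directions reversed in the starved wild type for CPA1 (-0.11, median centring; -0.0038 to 0.75 with each array left out, lowest without starved wild type array b), ILV2 (0.012, authors' ratios), LYS1 and LYS21 (0.33 and 0.13, NuB4 mutants as growing cells) and HIS4 (-0.31, common reference). They reversed between the growing sets for ILV1, ILV3 and ARO1 (-0.058, -0.042 and -0.0033, median centring), ILV2 (0.014, authors' ratios) and LEU9 (0.012, untagged alone), and with median centring for LEU1 in H3-HA (-0.00050) and TRP5 and ARO3 in H3-T7 (-0.032 and -0.0092). The causes were not tested. The median of the pixels, the other growing controls and the untagged strain alone were chosen after seeing the data.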

Other observations

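Genes for amino acid uptake and breakdown lie outside the 35 genes. In the starved wild type against the growing untagged RITE strain, 8 of 15 amino acid permease genes were higher and 6 lower, and 5 of 8 genes for amino acid breakdown were higher and none lower, where 41.7% of all probes were higher and 39.0% lower. The general amino acid permease gene GAP1 was higher by a log2 difference of 2.09 ± 0.18, AGP1 by 2.31 ± 0.12 and the branched-chain permease gene BAP2 by 2.20 ± 0.08, whereas the methionine permease gene MUP1 was lower by -1.92 ± 0.11. ARO10, a decarboxylase that turns aromatic keto acids into fusel aldehydes, was higher by 5.10 ± 0.14, and the proline oxidase gene PUT1 by 3.60 ± 0.15.

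Of 7 isoenzyme pairs outside the set, differences of log2 ratios within each array follow. BAT2 minus BAT1, the cytosolic over the mitochondrial branched-chain aminotransferase, was 3.94 to 5.11 on the 16 starved arrays, against -0.27 to 0.08 on the growing RITE and -0.56 to -0.25 on the growing NuB4 arrays. ARO9 minus ARO8, the aromatic aminotransferases, was 2.55 to 4.23 on starved arrays, against 0.01 to 0.82 and -0.40 to 0.10. GDH3 minus GDH1, the NADP-dependent glutamate dehydrogenases, was 3.66 to 6.0 on starved arrays, against -0.50 to -0.02 and -0.56 to -0.22. SER3 minus SER33, the first step of serine synthesis, was high in both RITE sets, at 2.39 to 4.29 on starved and 1.80 to 3.57 on growing RITE arrays, against -0.32 to 0.26 on the growing NuB4 arrays. The remaining pairs were closer: ASN1 minus ASN2 was 0.40 to 0.89 on starved arrays, against -0.32 to -0.04 on growing RITE and -0.31 to 0.11 on growing NuB4 arrays, AAT1 minus AAT2 was -1.31 to -0.44, against -0.21 to 0.20 and -0.02 to 0.28, and SHM1 minus SHM2 was -1.97 to -0.16, against 0.12 to 0.44 and -0.16 to 0.13. The pairs were picked after their values were seen.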
